A study of Mus musculus with 9 samples.

Results

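Genes that carry hexose sugars into the cell, phosphorylate them and dephosphorylate them again were followed in MIN6, an insulin-secreting line from a mouse insulinoma that stands in for pancreatic beta cells. The set holds 8 genes chosen by name out of 52408 genes in the deposited table: the transporters Slc2a1, Slc2a2, Slc2a3 and Slc2a5, the hexokinases Hk1 and Hk2, and the glucose 6-phosphatase subunits G6pc2 and G6pc3. All 8 were found. RNA was sequenced from 9 libraries in 3 groups of 3, all from the same line and all labelled batch 1. The first group is cells given EGCG (epigallocatechin gallate, a catechin of green tea) upon overexpression of Nr4a1, an orphan nuclear receptor. The second is cells overexpressing Nr4a1 without EGCG, and the third is untransfected control cells. The labels give no EGCG dose or time and no means of overexpression, and the control is not described as having received an empty vector, so transfection and Nr4a1 cannot be told apart in comparisons with it.

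Glucose enters cells through carriers of the Slc2a family, which let it move down its gradient. A hexokinase then traps it as glucose 6-phosphate. In beta cells that step is thought to set how insulin release follows blood glucose. Slc2a2 is the high-capacity transporter of rodent beta cells, Slc2a1 and Slc2a3 are high-affinity glucose transporters, and Slc2a5 is a fructose transporter. G6pc2 is a glucose 6-phosphatase subunit found mainly in islets, where it opposes the phosphorylation of glucose, and G6pc3 is its ubiquitous relative. Hk1 and Hk2 are high-affinity hexokinases that mature beta cells keep low.

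Promoters are shown for the 4 genes called between EGCG with overexpression and overexpression alone, where Slc2a1 and Slc2a2 were higher and Slc2a5 and G6pc2 lower. Each window is the 250 bases before a RefSeq start of the gene in build GRCm38.p6, on the plus strand for all 4. Capitals mark matches on either strand to the core of the hypoxia response element (ACGTG or GCGTG), to the E-box CACGTG, which contains ACGTG on both strands, or to the Nr4a1 response element AAAGGTCA. The Slc2a1 window is chr4:119108495-119108744, that of Slc2a5 is chr4:150119094-150119343, that of Slc2a2 is chr3:28697653-28697902 and that of G6pc2 is chr2:69219699-69219948.
Slc2a1: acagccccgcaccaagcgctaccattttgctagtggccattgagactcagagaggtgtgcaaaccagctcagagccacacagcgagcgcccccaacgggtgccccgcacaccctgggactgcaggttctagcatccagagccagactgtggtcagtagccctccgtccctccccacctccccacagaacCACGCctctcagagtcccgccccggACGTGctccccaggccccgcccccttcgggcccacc
Slc2a5: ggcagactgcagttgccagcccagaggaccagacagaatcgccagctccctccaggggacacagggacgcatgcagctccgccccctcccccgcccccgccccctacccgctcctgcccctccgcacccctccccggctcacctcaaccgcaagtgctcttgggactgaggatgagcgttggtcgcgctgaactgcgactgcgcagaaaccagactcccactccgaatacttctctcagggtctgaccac
Slc2a2: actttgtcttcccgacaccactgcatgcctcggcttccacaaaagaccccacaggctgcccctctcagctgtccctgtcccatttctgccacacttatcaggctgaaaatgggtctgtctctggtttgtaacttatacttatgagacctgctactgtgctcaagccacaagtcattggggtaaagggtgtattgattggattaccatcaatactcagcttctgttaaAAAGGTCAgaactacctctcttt
G6pc2: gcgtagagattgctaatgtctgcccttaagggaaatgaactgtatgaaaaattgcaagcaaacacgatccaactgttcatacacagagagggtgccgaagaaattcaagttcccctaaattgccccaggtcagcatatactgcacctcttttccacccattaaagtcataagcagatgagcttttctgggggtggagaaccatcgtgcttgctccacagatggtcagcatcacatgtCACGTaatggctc

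The Slc2a1 window held ACGTG at -36 on the plus strand and GCGTG at -61 on the minus strand, counted from the RefSeq start. The GENCODE start of its main transcript lies 34 bases before the RefSeq start. G6pc2 has 2 RefSeq windows: the printed one, whose start lies nearest to that of the transcript G6pc2-201, held ACGTG at -13 on the minus strand, and the other held GCGTG at -243 and -204. The Slc2a2 window held AAAGGTCA at -23 on the plus strand. The Slc2a5 window held none of the 4 motifs. Among 32851 RefSeq promoter windows of the same length, 16.6% held ACGTG, 28.2% held GCGTG, 6.02% held CACGTG and 1.34% held AAAGGTCA. RefSeq windows were at hand for 7 of the 8 genes. Of the windows not printed, that of G6pc3 held CACGTG at -99 and -79, that of Hk2 held ACGTG at -226 and -52, and 1 of the 2 Hk1 windows held GCGTG at -196, -15 and -12 while the other held none. Genes outside the 4 shown thus also carried hypoxia cores or the E-box. Their windows did not hold AAAGGTCA.

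Levels are given in TPM, a share of a library's transcripts corrected for length, which the authors deposited for each transcript and which were summed here per gene. TPM keeps no depth, so the depth is unknown and no counting interval is given. Nr4a1 stood at 46.25, 60.91 and 54.46 TPM in the EGCG libraries, at 128.30, 122.52 and 165.18 TPM with overexpression alone, and at 0.63, 0.78 and 0.76 TPM in control. EGCG-treated cells therefore held less Nr4a1 RNA than cells with overexpression alone, and an effect of EGCG cannot be told apart from a lower level of Nr4a1. All 12 beta cell markers were at 1 TPM or more in each group. Markers of other types were scarce: at 1 TPM or more were 1 of 7 acinar genes (Cela1), 1 of 6 ductal genes (Krt7), 0 of 6 fibroblast genes and 0 of 6 blood and endothelial genes. The labels do not say that the triplicates were separate cultures, so p-values reflect only how these libraries vary. The 3 comparisons share libraries in pairs, so their values stand side by side and are not independent of each other. Among called genes, the share that was higher depended on the scale: for overexpression against control it was 64.2% on deposited TPM and 51.2% after quantile normalization, and for EGCG against overexpression it was 35.5% and 47.6%. Over nuclear protein-coding genes alone, the share for EGCG against overexpression was 55.9%, and that for EGCG against control was 77.7%, beside 60.9% on deposited TPM and 50.2% after quantile normalization.

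**Figure D1:**
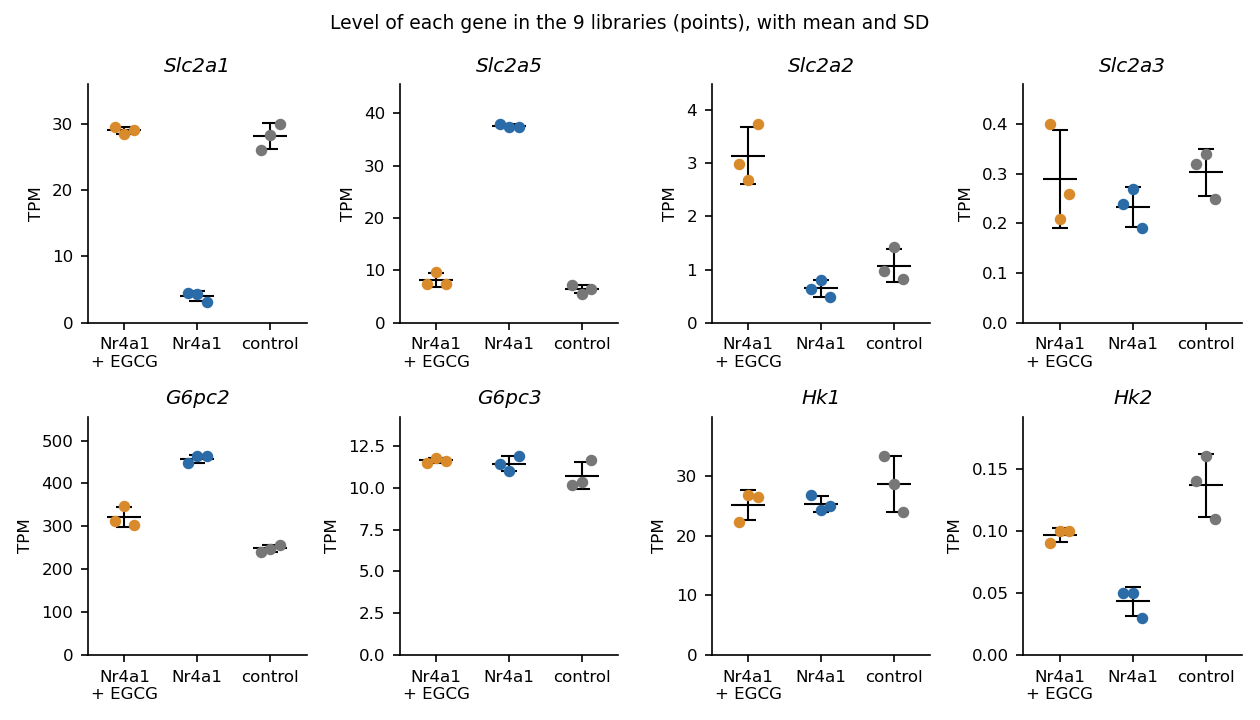
Level of each of the 8 genes in TPM (vertical axes start at 0 and differ between panels), with 1 point per library, the mean as a bar and the SD as whiskers, for EGCG with overexpression (orange), overexpression alone (blue) and control (grey). Slc2a1 is low and Slc2a5 and G6pc2 are high with overexpression alone, Slc2a2 is high in the EGCG libraries, and Hk1 and G6pc3 overlap between all groups.

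Overexpression of Nr4a1 was accompanied by an exchange of the main hexose transporter transcript. Slc2a1 fell to 0.143 of its control level by group means, while Slc2a5 rose 5.86-fold. G6pc2, already the most abundant of the 8, rose 1.84-fold. Of the 6 genes that passed the filter (1 TPM or more in 3 or more libraries), 2 were higher and 1 was lower than control by limma at a Benjamini-Hochberg adjusted p of 0.05. Of all 11950 genes tested 59.5% were called, 38.2% higher and 21.3% lower, so the count of 3 of 6 is near that background. Median-ratio scaling called 5 of the 6, and without control replicate 3 all 6 were called. Both counts include Hk1, of which 1 short transcript was found in control replicates 1 and 2 alone.

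With EGCG added, these 3 genes moved the other way and Slc2a2 rose as well. Against overexpression alone, Slc2a1 was 7.2-fold higher, and Slc2a2, from a mean of 0.6467 TPM, was 4.85-fold higher. Slc2a5 stood at 0.218 and G6pc2 at 0.702 of its level with overexpression alone. That made 2 higher, 2 lower and 2 not called, beside 53.0% of all genes called, 18.8% higher and 34.1% lower. Against control, the EGCG group had 2 genes called, Slc2a2 and G6pc2, both higher, and 0 lower, beside 18.2% of all genes called, 11.1% higher and 7.10% lower. Slc2a2 is among the higher genes of both comparisons. It would not have passed the filter without its EGCG libraries, so being high with EGCG was its condition of entry. The groups did not overlap for 4 of the 6 genes in each comparison with overexpression alone and for 3 of 6 between EGCG and control, beside 65.0% of all genes for overexpression against control, 64.6% for EGCG against overexpression and 34.8% for EGCG against control.

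**Figure D2:**
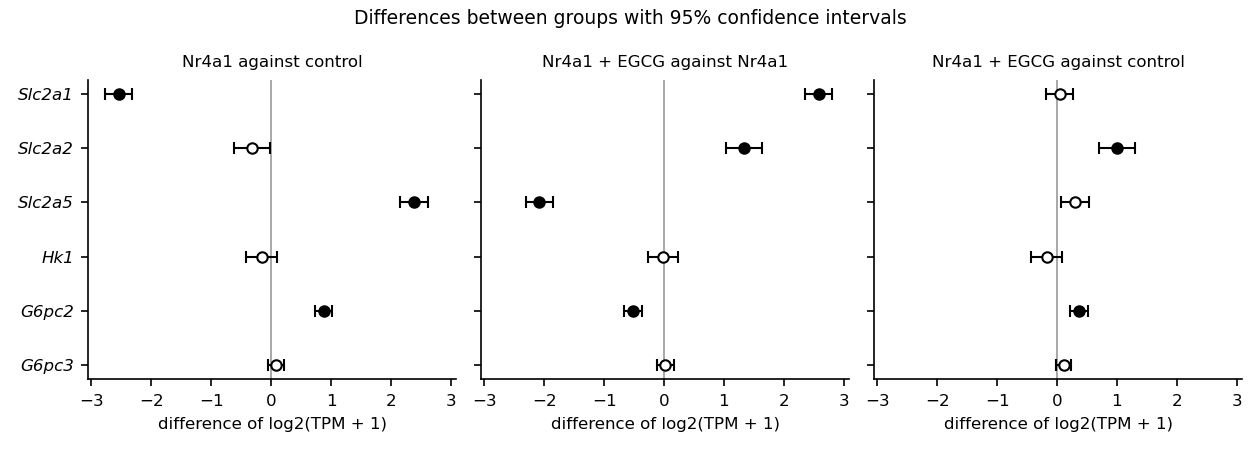
Difference of mean log2(TPM + 1) with its 95% confidence interval from limma for the 6 tested genes, in overexpression against control (left), EGCG with overexpression against overexpression (middle) and EGCG with overexpression against control (right). Filled points passed an adjusted p of 0.05. Slc2a1 lies at -2.54 on the left and 2.59 in the middle, Slc2a5 at 2.38 and -2.08, and in the right panel Slc2a2 and G6pc2 are filled.

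Slc2a1 (GLUT1, ENSMUSG00000028645) measured 29.54, 28.46 and 29.03 TPM in the EGCG libraries, 4.53, 4.35 and 3.20 TPM with overexpression alone, and 26.09, 28.31 and 29.92 TPM in control. The 3 overexpression libraries were low and far from both other groups, which overlapped each other. With overexpression Slc2a1 changed by -2.54 ± 0.0998 (SE), as a difference of mean log2(TPM + 1) (limma, Benjamini-Hochberg adjusted p = 3.34e-07). EGCG with overexpression differed from overexpression alone by 2.59 ± 0.0998 (adjusted p = 2.95e-07). Between the EGCG and control groups the difference was 0.05, with a 95% interval of -0.18 to 0.27 (adjusted p = 0.774). A difference within that interval is not excluded.

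Both Slc2a1 transcripts that made up at least 5% of the gene's TPM followed this course. The coding transcript Slc2a1-201 (ENSMUST00000030398) averaged 15.3 ± 0.165 TPM with EGCG, 2.37 ± 0.361 TPM with overexpression alone and 16.2 ± 0.367 TPM in control (SD, n = 3 each). Slc2a1-204, annotated as a target of nonsense-mediated decay and 43.5% of the gene's TPM over all libraries, averaged 13.2 ± 0.602 TPM with EGCG, 1.66 ± 0.415 TPM with overexpression alone and 11.7 ± 1.44 TPM in control. Overexpression against control gave -2.36 for Slc2a1-201 and -2.26 for Slc2a1-204, and EGCG against overexpression gave 2.28 and 2.43 (log2 scale, limma over 23437 transcripts, all called). The antisense gene Gm12867 overlaps Slc2a1 and averaged 1.22 TPM with EGCG, 0.0833 TPM with overexpression alone and 0.117 TPM in control. The labels do not give the strand setting of the authors' counting, so reads of the pair may not be fully separated.

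Slc2a5 (GLUT5, ENSMUSG00000028976) took the opposite course. Its level was 7.42, 9.63 and 7.47 TPM with EGCG, 37.90, 37.41 and 37.41 TPM with overexpression alone, and 7.15, 5.57 and 6.53 TPM in control. The overexpression libraries agreed within 1 TPM and lay far above the rest, and the EGCG libraries lay just above all 3 controls. The difference was 2.38 ± 0.103 (SE, log2 scale) for overexpression against control (limma, Benjamini-Hochberg adjusted p = 5.13e-07) and -2.08 ± 0.103 for EGCG against overexpression (adjusted p = 1.26e-06). EGCG against control gave 0.30, with an interval of 0.07 to 0.54, and missed the threshold (adjusted p = 0.0712), which it passed over nuclear protein-coding genes alone at 0.36 (adjusted p = 0.0217).

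Much of the Slc2a5 signal came from short non-coding transcripts. Slc2a5-201, the coding form of 3158 nucleotides, held 38.2% of the gene's TPM, the retained-intron transcript Slc2a5-202 of 672 nucleotides held 36.4%, and Slc2a5-204, a processed transcript of 594 nucleotides, held 24.5%. TPM is divided by length, so few reads on the short forms give a high value. All 3 rose with overexpression, by 1.92, 2.42 and 2.01 on the log2 scale. All 3 were also lower with EGCG than with overexpression alone, at -2.01 for Slc2a5-201, -1.90 for Slc2a5-202 and -1.59 for Slc2a5-204 (limma, each called). The coding form averaged 2.77 ± 0.408 TPM with EGCG, 14.1 ± 0.73 TPM with overexpression alone and 3.00 ± 0.284 TPM in control (SD, n = 3 each). EGCG against control was -0.09 for Slc2a5-201, against 0.52 for Slc2a5-202 and 0.42 for Slc2a5-204 (limma, adjusted p = 0.569, 0.0781 and 0.112), so the small excess of the summed gene over control lay in the short forms.

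**Figure D3:**
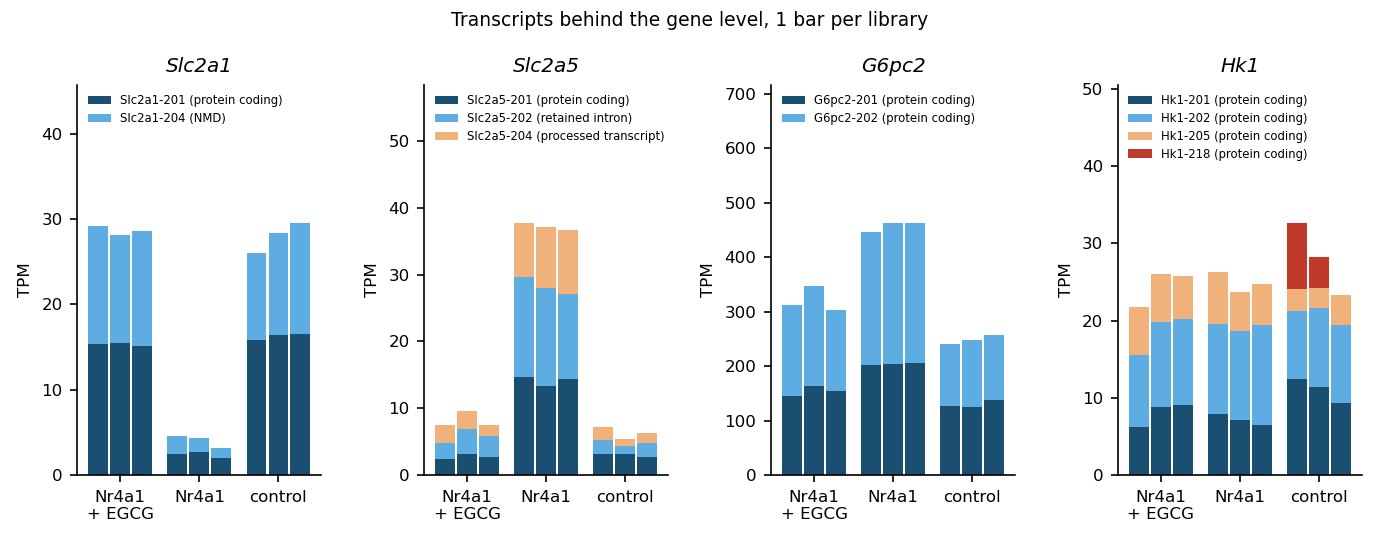
TPM of the transcripts that made up at least 5% of Slc2a1, Slc2a5, G6pc2 and Hk1, stacked, with 1 bar per library in the order EGCG with overexpression, overexpression alone, control. Each Slc2a1 and Slc2a5 transcript changes with its gene, both G6pc2 transcripts are high with overexpression alone, and Hk1-218 (red) appears in control replicates 1 and 2 at 8.56 and 4.05 TPM and nowhere else.

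Slc2a2 (GLUT2, ENSMUSG00000027690) was scarce in these cells. It measured 2.99, 2.69 and 3.73 TPM with EGCG, 0.64, 0.81 and 0.49 TPM with overexpression alone, and 0.97, 1.42 and 0.82 TPM in control. The EGCG libraries lay above every other library, and the 3 overexpression libraries lay just below the 3 controls. Only the EGCG libraries and control replicate 2 reached 1 TPM. Without the EGCG libraries the gene would not have passed the filter, so being high with EGCG was a condition of its being tested. EGCG against overexpression gave 1.33 ± 0.133 (SE, log2 scale; limma, Benjamini-Hochberg adjusted p = 5.56e-05), and EGCG against control gave 1.00 ± 0.133 (adjusted p = 0.00399), a ratio of means of 2.93. Overexpression against control was -0.32 and missed the threshold (adjusted p = 0.0608). At these levels the added 1 TPM shrinks the difference, which with a pseudocount of 0.1 was -0.64 and passed (adjusted p = 0.038).

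The coding transcript Slc2a2-201 averaged 1.57 ± 0.0985 TPM with EGCG, 0.447 ± 0.0289 TPM with overexpression alone and 0.793 ± 0.13 TPM in control (SD, n = 3 each). It passed the filter through the EGCG libraries alone, so being high with EGCG was a condition of its being tested. It was higher with EGCG in both comparisons, by 0.83 against overexpression and 0.52 against control, and lower with overexpression than in control, at -0.31 (log2 scale; limma, Benjamini-Hochberg adjusted p = 0.000517, 0.0186 and 0.0323). The last call was lost on leaving out control replicate 1 or 3, any overexpression replicate or EGCG replicate 1 (adjusted p between 0.0519 and 0.0952). The call between EGCG and control was lost without control replicate 2 or EGCG replicate 1 (adjusted p = 0.059 and 0.0749). The non-coding forms Slc2a2-202 and Slc2a2-203 averaged 1.02 and 0.547 TPM with EGCG and at most 0.167 TPM in the other groups. Part of the excess of the summed gene with EGCG thus lay in these forms. Neither passed the filter. 1700112D23Rik lies antisense to Slc2a2 and averaged 0.87 TPM with EGCG, 1.29 TPM with overexpression alone and 1.47 TPM in control.

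Slc2a3 (GLUT3, ENSMUSG00000003153) was near the floor in every group. It measured 0.40, 0.21 and 0.26 TPM with EGCG, 0.24, 0.27 and 0.19 TPM with overexpression alone, and 0.32, 0.34 and 0.25 TPM in control. The groups overlapped, and the gene was not tested. In a fit without the filter, over 39165 genes, it was not called in any comparison (limma, Benjamini-Hochberg adjusted p = 0.416 for overexpression against control, 0.902 for EGCG against overexpression and 0.893 for EGCG against control).

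The exchange between Slc2a1 and Slc2a5 changed the summed level of the 4 transporters far less than its make-up. Their sum lay between 40.4 and 41.0 TPM with EGCG, between 41.3 and 43.3 TPM with overexpression alone, and between 34.5 and 37.5 TPM in control. Slc2a1 made up 69.4% to 73.2% of that sum with EGCG, 7.75% to 10.5% with overexpression alone and 75.6% to 79.7% in control. Slc2a5 made up 18.4% to 23.5% with EGCG, 87.3% to 90.6% with overexpression alone and 15.6% to 20.7% in control. The sums of both overexpressing groups lay above control without overlap, and overexpression alone was the group in which Slc2a5 led.

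Counting coding transcripts alone, the sum lay between 20.1 and 20.7 TPM with EGCG, between 16.7 and 17.8 TPM with overexpression alone and between 20.3 and 20.6 TPM in control. On that basis the overexpression libraries were the low ones, and the order of the sums differed from that over all transcripts. The level of coding Slc2a1 over coding Slc2a5 was 4.93 to 6.52 with EGCG, 0.137 to 0.201 with overexpression alone and 4.99 to 6.33 in control. Here the EGCG range and the control range overlapped. These shares restate the levels of the genes above and were not tested.

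**Figure D4:**
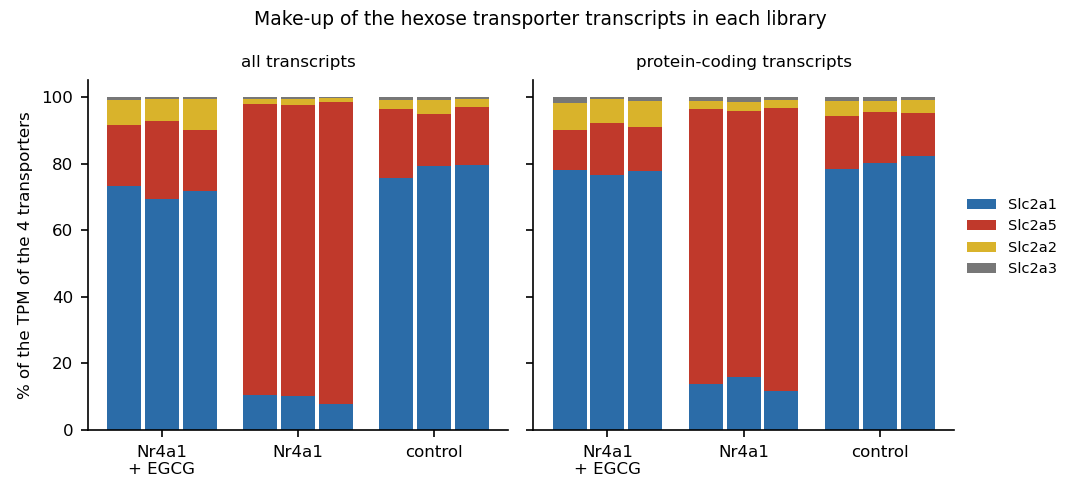
Share of Slc2a1, Slc2a5, Slc2a2 and Slc2a3 in their summed TPM, in percent, with 1 stacked bar per library in the order EGCG with overexpression, overexpression alone, control, from all transcripts (left) and from protein-coding transcripts (right). With overexpression alone Slc2a5 fills 87.3% to 90.6% of the bar on the left and 79.7% to 85.0% on the right. In the other libraries Slc2a1 leads.

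Hk1 (ENSMUSG00000037012) far exceeded Hk2 and did not pass the test in any comparison. It measured 22.32, 26.85 and 26.43 TPM with EGCG, 26.81, 24.27 and 24.98 TPM with overexpression alone, and 33.27, 28.71 and 24.00 TPM in control. The groups overlapped, and control spread widest. Overexpression against control was -0.16 with a 95% interval of -0.42 to 0.10, EGCG against overexpression -0.01 (-0.27 to 0.24) and EGCG against control -0.17 (-0.43 to 0.08), as log2 differences (limma, Benjamini-Hochberg adjusted p = 0.25, 0.942 and 0.31). The control spread came from a single short transcript, Hk1-218 of 784 nucleotides, at 8.56, 4.05 and 0 TPM in the 3 controls and listed at 0 in the other 6 libraries. Without it, a step added after the data were seen, control stood at 24.71, 24.66 and 24.00 TPM, and the differences from control were 0.05 for overexpression and 0.04 for EGCG.

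Beneath that sum, coding Hk1 transcripts changed with overexpression in opposite directions. Hk1-205 averaged 6.03 ± 0.301 TPM with EGCG, 5.69 ± 0.963 TPM with overexpression alone and 3.10 ± 0.75 TPM in control (SD, n = 3 each). Every EGCG and overexpression library lay above every control, by 0.79 for EGCG and 0.71 for overexpression (log2 scale; limma, Benjamini-Hochberg adjusted p = 0.0168 and 0.00434). The overexpression call held in every alternative, and the EGCG call was lost without control replicate 1 or 2 or EGCG replicate 1 or 2 (adjusted p between 0.0503 and 0.0621). Hk1-201 averaged 8.01 ± 1.52 TPM with EGCG, 7.16 ± 0.71 TPM with overexpression alone and 11.1 ± 1.56 TPM in control, and fell with overexpression by 0.56 (adjusted p = 0.0142, and 0.0511 without overexpression replicate 3). Hk1-202 averaged 10.5 ± 1.05 TPM with EGCG, 12.1 ± 0.804 TPM with overexpression alone and 9.69 ± 0.783 TPM in control, and rose by 0.29 with overexpression (adjusted p = 0.0269). That call was lost under median-ratio scaling (adjusted p = 0.139) and without control replicate 1 or overexpression replicate 1 or 3 (adjusted p between 0.0501 and 0.0912). None of the 3 passed the test between EGCG and overexpression alone. The forms overlap in sequence, so how reads were split between them rests on the authors' estimation.

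Hk2 (ENSMUSG00000000628), the inducible hexokinase of muscle and fat, was barely present. It measured 0.09, 0.10 and 0.10 TPM with EGCG, 0.05, 0.05 and 0.03 TPM with overexpression alone, and 0.14, 0.16 and 0.11 TPM in control. The groups were in order without overlap, but all lay far below the filter. Without the filter, overexpression against control was called lower, at -0.12 on the log2 scale, while EGCG against overexpression at 0.07 and EGCG against control at -0.05 were not (limma, Benjamini-Hochberg adjusted p = 0.0134, 0.174 and 0.264). The summed TPM of the 12 fibroblast, blood and endothelial markers, 0 of which reached 1 TPM, followed the same order, at 0.92 to 1.04 with EGCG, 0.63 to 0.72 with overexpression alone and 1.36 to 2.16 in control. Their part in the Hk2 difference was not tested.

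G6pc2 (ENSMUSG00000005232) was by far the most abundant of the 8 genes. It measured 312.91, 347.13 and 303.21 TPM with EGCG, 446.79, 462.99 and 462.97 TPM with overexpression alone, and 241.33, 247.94 and 256.59 TPM in control. The 3 groups did not overlap, with overexpression alone high, control low and EGCG between them. Overexpression against control gave 0.88 ± 0.0636 (SE, log2 scale; limma, Benjamini-Hochberg adjusted p = 6.48e-06). EGCG was lower than overexpression alone, at -0.51 ± 0.0636 (adjusted p = 0.000183) and still 0.37 ± 0.0636 above control (adjusted p = 0.00816). Both coding transcripts took part: G6pc2-202 changed by 1.09 and G6pc2-201 by 0.64 with overexpression, and by -0.60 and -0.40 between EGCG and overexpression (limma, each called). G6pc2-202 averaged 167 ± 17.9 TPM with EGCG, 253 ± 8.0 TPM with overexpression alone and 118 ± 4.20 TPM in control, and G6pc2-201 averaged 154 ± 9.44 TPM with EGCG, 204 ± 2.11 TPM with overexpression alone and 130 ± 6.90 TPM in control (SD, n = 3 each).

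G6pc3 (ENSMUSG00000034793) stayed nearly level. It measured 11.50, 11.80 and 11.61 TPM with EGCG, 11.43, 11.00 and 11.88 TPM with overexpression alone, and 10.19, 10.34 and 11.65 TPM in control. The groups overlapped. Its differences were 0.09 (-0.05 to 0.22) for overexpression against control, 0.02 (-0.11 to 0.16) for EGCG against overexpression and 0.11 (-0.02 to 0.24) for EGCG against control, with 95% intervals in parentheses (log2 scale; limma, Benjamini-Hochberg adjusted p = 0.233, 0.759 and 0.214). Over nuclear protein-coding genes alone, EGCG against overexpression was called at 0.16 (adjusted p = 0.0484). G6pc3-202 rose against control with EGCG, by 0.52, while G6pc3-201 was at -0.51 and missed the threshold (adjusted p = 0.0344 and 0.141). The G6pc3-202 call was lost on leaving out any control or EGCG replicate or overexpression replicate 2 (adjusted p between 0.051 and 0.0965).

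Over the 13 transcripts of the 8 genes that passed the filter, overexpression against control called 7 higher and 4 lower, beside 46.3% of all 23437 transcripts, 29.9% higher and 16.4% lower. EGCG against overexpression called 3 higher and 5 lower, beside 33.1% of all, 11.5% higher and 21.7% lower. EGCG against control called 5 higher and 0 lower, beside 11.0% of all, 6.41% higher and 4.56% lower. That last count of 5 fell to between 1 and 3 when control replicate 1 or 2, overexpression replicate 2 or any EGCG replicate was left out. The higher calls in both comparisons of the EGCG group include Slc2a2-201. That transcript passed the filter through the EGCG libraries alone, so being high with EGCG was its condition of entry.

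The order of the 8 levels in TPM changed between groups. With EGCG it ran G6pc2, Slc2a1, Hk1, G6pc3, Slc2a5, Slc2a2, Slc2a3, Hk2, and no neighbours overlapped. With overexpression alone Slc2a5 moved up to the second place and Slc2a1 down to the fifth, again with no overlap of neighbours. In control the order was that of the EGCG group except that Hk1 and Slc2a1 changed places, and the values of those 2 genes overlapped. Without the short transcript Hk1-218, control Hk1 stood at 24.71, 24.66 and 24.00 TPM, below Slc2a1 at 26.09, 28.31 and 29.92 TPM. The control order was then that of the EGCG group, with no overlap of these 2 genes. G6pc2 over Hk1, a ratio of levels in TPM, was 14.0, 12.9 and 11.5 with EGCG, 16.7, 19.1 and 18.5 with overexpression alone, and 7.25, 8.64 and 10.7 in control. The 3 groups did not overlap in that ratio. The Hk1 sum includes Hk1-218, at 8.56 and 4.05 TPM in control replicates 1 and 2 and at 0 elsewhere. It lowers the ratio in those 2 control libraries and so widens their distance from the other groups. Control replicate 3, nearest to the EGCG libraries at 10.7, had Hk1-218 at 0.

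The other genes of hexose handling were read from lists. Adpgk, which phosphorylates glucose with ADP, rose by 0.42 with overexpression (log2 scale; limma, Benjamini-Hochberg adjusted p = 0.000349). Its difference of -0.26 between EGCG and overexpression lost its call under each of the 3 other scalings.

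Beside G6pc2 and G6pc3, 3 of 5 genes of the glucose 6-phosphatase system were tested, and 2 rose with overexpression, beside 38.2% of all genes. Slc37a4, which carries glucose 6-phosphate into the endoplasmic reticulum where the phosphatases act, averaged 16.2 ± 1.49 TPM with EGCG, 10.4 ± 0.372 TPM with overexpression alone and 12.3 ± 1.27 TPM in control (SD, n = 3 each). It differed by 0.59 between EGCG and overexpression and by 0.37 between EGCG and control (log2 scale; limma, Benjamini-Hochberg adjusted p = 0.000422 and 0.0199). Against control, overexpression stood at -0.22 and just missed the threshold (adjusted p = 0.05), which it passed under each other scaling. Slc37a1, a phosphate-linked exchanger, rose by 0.67 with overexpression and was lower with EGCG, at -0.43 (adjusted p = 0.000497 and 0.00713). Slc37a3 rose by 0.40 with overexpression, a call lost under median-ratio and quantile scaling.

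Of 17 other hexose and polyol transporters only 3 reached the filter. Slc2a6, a transporter of the lysosome, averaged 1.68 ± 0.0929 TPM with EGCG, 3.12 ± 0.18 TPM with overexpression alone and 1.38 ± 0.134 TPM in control (SD, n = 3 each). It changed by 0.79 with overexpression and by -0.62 between EGCG and overexpression (log2 scale; limma, Benjamini-Hochberg adjusted p = 1.82e-05 and 9.92e-05). Slc50a1, the sugar exporter SWEET1, fell by 0.24 with overexpression and was 0.32 higher with EGCG (adjusted p = 0.0302 and 0.0108). The insulin-responsive transporter Slc2a4 stayed between 0.08 and 0.37 TPM over all libraries.

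Downstream of hexose 6-phosphate, 18 of 19 listed symbols matched a gene (H6pdx did not), and 17 were tested. With overexpression 7 rose and 7 fell, beside 38.2% and 21.3% of all genes. With EGCG against overexpression 7 rose and 6 fell, beside 18.8% and 34.1% of all genes. EGCG against control called 6 higher and 1 lower, beside 11.1% and 7.10% of all genes. Their median differences were -0.04, 0.09 and 0.11 in these 3 comparisons, beside 0.10, -0.09 and 0.02 over all tested genes. Gpi1, which turns glucose 6-phosphate into fructose 6-phosphate, averaged 221 ± 24.1 TPM with EGCG, 79.8 ± 3.84 TPM with overexpression alone and 299 ± 40.5 TPM in control (SD, n = 3 each). Pgm1, which leads glucose 6-phosphate toward glycogen, averaged 65.5 ± 1.64 TPM with EGCG, 16.7 ± 1.06 TPM with overexpression alone and 66.0 ± 4.68 TPM in control. Pfkfb3, which makes the activator of phosphofructokinase, averaged 24.2 ± 1.87 TPM with EGCG, 3.68 ± 0.601 TPM with overexpression alone and 18.9 ± 0.969 TPM in control. All 3 fell with overexpression, with log2 differences of -1.88 for Gpi1, -1.92 for Pgm1 and -2.09 for Pfkfb3, and EGCG against overexpression gave 1.45, 1.91 and 2.44 (limma, each called). Fbp2, a fructose bisphosphatase, was at -0.81 and 1.08 in these comparisons, both called.

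On the fructose and polyol route, 5 of 7 genes were tested. Akr1b3, the aldose reductase that opens the route from glucose to fructose, averaged 19.4 ± 1.05 TPM with EGCG, 32.9 ± 0.502 TPM with overexpression alone and 14.2 ± 1.69 TPM in control (SD, n = 3 each). Khk, which phosphorylates fructose, averaged 3.24 ± 0.516 TPM with EGCG, 1.15 ± 0.0702 TPM with overexpression alone and 2.28 ± 0.191 TPM in control. With overexpression Akr1b3 rose by 1.16 and Khk fell by 0.60, and with EGCG against overexpression they changed by -0.73 and 0.97 (log2 scale, limma, each called). Akr1b3 thus moved in the direction of the fructose transporter Slc2a5 and Khk in the opposite one. Both were above control with EGCG, by 0.43 and 0.37 (adjusted p = 0.00968 and 0.0287).

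All 9 genes of hexokinase binding and transporter trafficking were tested. With overexpression 4 rose and 1 fell, beside 38.2% and 21.3% of all genes, and with EGCG against overexpression 1 rose and 5 fell, beside 18.8% and 34.1%. Vdac1, the outer mitochondrial membrane channel to which hexokinases bind, fell by 0.30 with overexpression (adjusted p = 0.00256) and was 0.25 higher with EGCG than with overexpression (adjusted p = 0.00915). Vdac3 rose by 0.37 with overexpression, and Vdac2 rose by 0.22, a call lost under each other scaling (limma, Benjamini-Hochberg adjusted p = 0.00016 and 0.0435). Both were lower with EGCG than with overexpression, at -0.38 for Vdac3 and -0.34 for Vdac2 (limma, adjusted p = 0.000193 and 0.00727). That Vdac2 call was lost under quantile normalization (adjusted p = 0.141). Txnip, an arrestin that promotes removal of Slc2a1 from the cell surface, averaged 12.1 ± 1.30 TPM with EGCG, 16.5 ± 0.766 TPM with overexpression alone and 16.8 ± 0.373 TPM in control (SD, n = 3 each). It was lower with EGCG than in either other group, at -0.42 against overexpression and -0.44 against control (adjusted p = 0.00126 and 0.00719). Its relative Arrdc4 rose by 0.62 with overexpression (adjusted p = 0.000731).

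**Figure D5:**
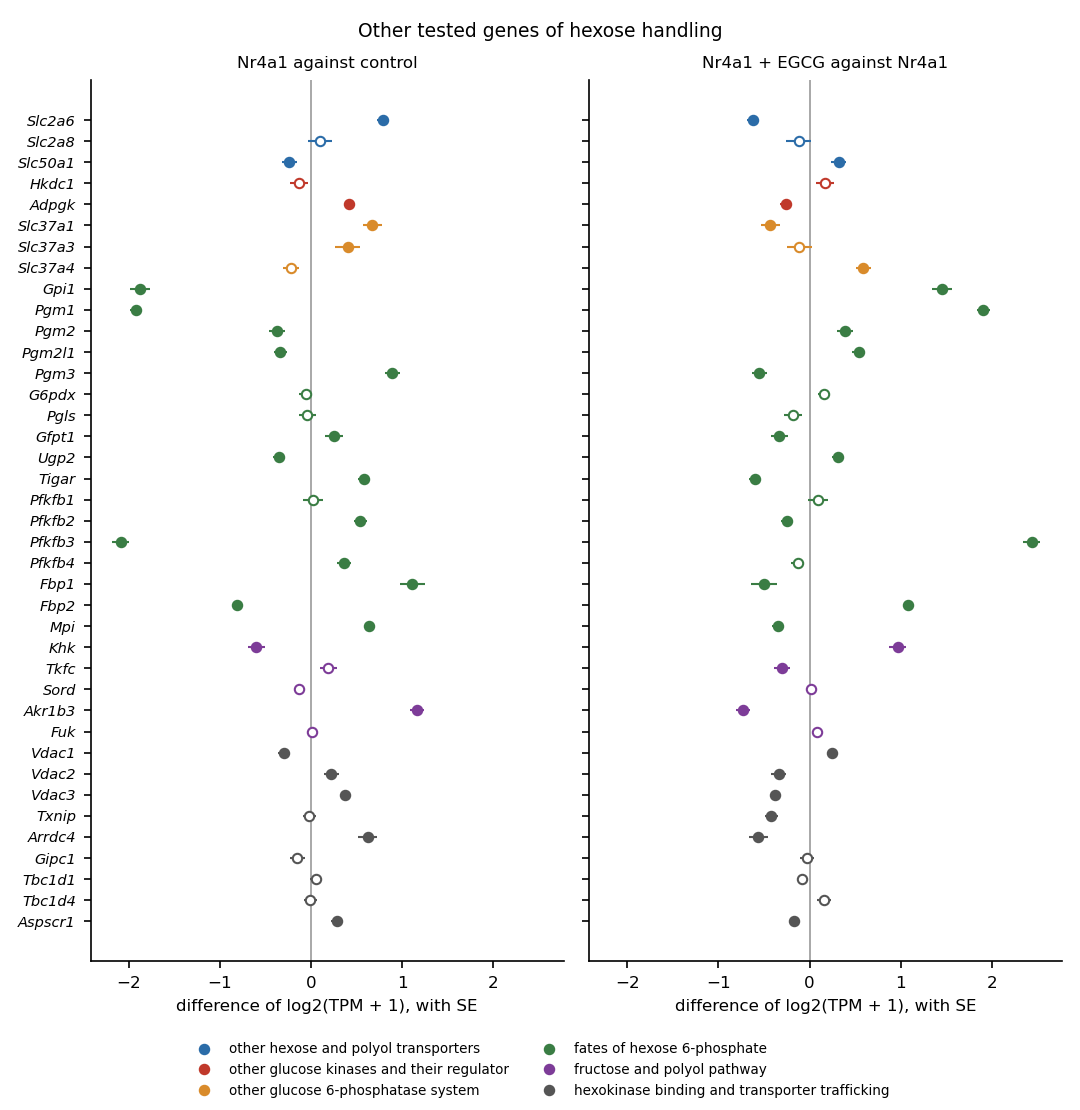
Difference of mean log2(TPM + 1) with limma's SE for other tested genes of hexose handling, coloured by list, for overexpression against control (left) and EGCG with overexpression against overexpression (right). Filled points passed an adjusted p of 0.05. Pgm1, Gpi1 and Pfkfb3 lie farthest left in the left panel, at -1.92, -1.88 and -2.09, and farthest right in the right panel.

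Profiles over the 9 libraries on log2(TPM + 1) were compared among 6610 tested protein-coding genes averaging at least 5 TPM. Symbols of predicted genes and clones were left out. The nearest genes were named for each tested gene by Pearson's r, as a description with no test. The 9 points fall into the 3 groups, which every such r shares. For Slc2a1 they were P4ha1, Anxa2 and Pgm1, each at r = 0.999. For Slc2a5 they were Ppp1r8, Srsf1 and Gramd3 (r = 0.997, 0.996 and 0.996), and for G6pc2 Vps35 and Asns (r = 0.995 and 0.994). Slc2a2 had Zfp740, Marf1 and Anxa7 (r = 0.983, 0.981 and 0.980). For Hk1 and G6pc3, which varied little between groups, the nearest were Brms1l (r = 0.966) and Immp1l (r = 0.967). The Hk1 profile includes Hk1-218, found in control replicates 1 and 2 alone.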

How the data were processed

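RNA from 9 MIN6 libraries was made into stranded total RNA libraries, per the labels' protocols. The authors deposited TPM values per Ensembl transcript. Per the submitters' processing notes they used bcl2fastq 2.20, FastQC 0.11.9, cutadapt 2.8, STAR 2.7.1a, RSEM 1.2.31 and the GRCm39 build; their roles, the annotation release and the strand setting are not stated there. Each TPM is a share of its library, so when abundant RNAs rise the others fall.

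Of 142435 transcript identifiers 138346 (97.13%) matched GENCODE M21, and TPM was summed per gene. The 4089 unmatched ones held 17.993% to 20.572% of the TPM and were left out. Names, biotypes and lengths come from M21, which describes an older build, and promoters from the RefSeq table of GRCm38.p6. Genes and transcripts that reached 1 TPM in 3 or more libraries were tested with limma 3.58.1 in R 4.3.3 on log2(TPM + 1), in a fit of all 9 libraries with a mean-variance trend, two-sided, with Benjamini-Hochberg adjustment at 0.05 over all features of a comparison. A difference on this scale understates that of low genes. The fit was tested on simulated data. Errors are SD over 3 libraries or limma's SE.

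The 8 genes, the lists and the tests were chosen with earlier results of these data known. From each list the text may name up to 3 called genes with the smallest adjusted p in either of the first 2 comparisons and any gene averaging 50 TPM or more; Slc2a4 and the overlapping antisense genes were named outside that rule. Some genes that the rule names are not reported here. Alternatives covered the pseudocount, the filter, 3 other scalings, coding transcripts alone, the samples in the fit, the trend, a replicate block and leaving out each library. Python 3.11.15, pandas 2.3.3, numpy 2.4.6 and matplotlib 3.10.9 served for the rest.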

Additional observations from a re-analysis of the deposited data

How the results depend on the processing

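Slc2a1, Slc2a5 and G6pc2 kept their direction and call in both comparisons with overexpression alone under every alternative run (20 each), with overexpression against control at -2.79 to -2.37, 1.92 to 2.54 and 0.76 to 0.92 on the log2 scale. Slc2a2 kept its 2 EGCG calls in the 19 alternatives that tested it. Its EGCG libraries had carried it through the filter, which leave-one-out fits applied to all 9 libraries before the omission. Those fits thus did not repeat that selection. The Slc2a2 difference between overexpression and control passed the threshold in 7 of 19, and ranged from -0.64 to -0.21.

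Over all genes, overexpression against control called 7106, and 12395 with no filter. EGCG against control called 2172, but 4775 with no filter, 895 with the 2 groups alone, and 735 to 3239 as each library was left out (735 without EGCG replicate 1, 974 and 988 without control replicates 2 and 1, 1246 without EGCG replicate 2). Scaling moved the median of all genes by at most 0.12. Of the 8 genes, overexpression against control called 3, but 5 under median-ratio scaling and 3 to 6 as each library was left out, the 6 being without control replicate 3. EGCG against control called 2, but 1 with at least 5 TPM, a filter that Slc2a2 does not pass, and 2 to 3 as each library was left out. Of their transcripts it called 5, but 1 to 5 as each library was left out.

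Small differences that had not passed the test turned sign, and none passed after turning. Hk1 against control was at 0.05 for overexpression and 0.04 for EGCG without Hk1-218. Hk1 for EGCG against overexpression was at 0.09 under median-ratio scaling, 0.14 under quantile normalization, 0.13 over nuclear protein-coding genes, and -0.06 to 0.07 as each library was left out. G6pc3 for overexpression against control was at -0.02 under median-ratio scaling and -0.05 under quantile normalization. For EGCG against overexpression it reached -0.0019 to 0.05 as each library was left out. For EGCG against control, Slc2a1 was at -0.05 and Slc2a5 at -0.09 over coding transcripts alone, and Slc2a1 at -0.0047 to 0.09 as each library was left out. Hk1 was called lower with overexpression than in control under median-ratio scaling (-0.27), quantile normalization (-0.30) and without control replicate 3 (-0.28), where G6pc3 was also called higher with overexpression (0.14) and with EGCG (0.17). In these fits Hk1 included Hk1-218, at 8.56, 4.05 and 0 TPM in control replicates 1, 2 and 3. They were not repeated without that transcript.

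Same-numbered libraries were checked for pairing: 3 of 9 pairs correlated above 0.1 (-0.02 to 0.21) and 5 of 9 were highest with their own number, so the numbers were not taken as pairs. A replicate block gave 6723 genes for overexpression against control, 5882 for EGCG against overexpression and 1221 for EGCG against control, with 3, 4 and 2 of the 8 genes and 10, 8 and 2 of their transcripts. It changed no call of the 6 tested genes. Of the transcripts it ended both calls against control for Slc2a2-201 (adjusted p = 0.0541 for EGCG and 0.0632 for overexpression) and the EGCG calls against control for G6pc3-202 (0.0542) and G6pc2-201 (0.0786). Causes of these changes were not tested. Depth cannot be read from TPM, so Slc2a3 and Hk2 carry an unknown counting error.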
